A study of Mus musculus with 371 samples.

Results

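Besides its single-cell libraries, the expression table of tumour-infiltrating T cells held 4 columns whose names carry the word Population, 1 for each combination of genotype and sort. They were chosen by that word. These 4 columns are 1.07% of the table, and all other columns were single cells. The mice were C57BL/6, either wild type (WT) or lacking the interleukin-27 receptor alpha chain (IL27ra KO, here KO), and carried tumours of B16F10, a mouse melanoma cell line. The 4 groups are the CD8 sort and the CD4 sort of each genotype, as the titles name them. The treatment label speaks of CD8+ cells for all samples, including those titled CD4, so the sort was taken from the titles and checked below against Cd8a and Cd4. Age, sex, the day of tumour harvest and the type of knockout allele are not given in the sources used here. Every title carries the number 3 beside its genotype, and whether it names an animal is not given. The tag p1 marks both CD8 groups and p2 both CD4 groups, so sort and tag cannot be told apart. What a Population column was made from, and from how many cells, is not given either. In the column names its number was the 85th of each run of 96, between those of single cells. Each Population column was set beside the average of the cells of its group that had at least 1000 genes at 1 FPKM or more, which were 90 of 94 WT and 86 of 90 KO cells in CD8 and 85 of 94 WT and 89 of 93 KO cells in CD4. Where 4 values stand in a row below, the CD8 groups come before the CD4 groups and WT before KO. With 1 Population column per group, all comparisons are descriptions of single libraries, without replicate error or test.

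Interleukin-27 is a cytokine of antigen-presenting cells that acts on T cells through a receptor built from Il27ra and gp130 (Il6st), Janus kinases and STAT proteins such as STAT3. In T cells it is known to induce interferon-type genes and co-inhibitory receptors such as Tim-3 and Lag-3. Smart-seq2 copies polyadenylated RNA of a single cell into full-length cDNA and amplifies it by PCR. Transcripts present in few copies are often lost before amplification, so a gene can be absent from one cell and high in the next. A library made from many cells at once suffers less from this loss but cannot say which cell a transcript came from.

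Il27ra, the deleted receptor chain (mm10 chromosome 8, 84030294 to 84042589), was present in all 4 Population columns at 146.3 FPKM (WT) and 107.2 FPKM (KO) in CD8 and 176.7 and 123.9 FPKM in CD4. Averages of the cells were 51.7, 58.4, 83.1 and 47.6 FPKM. The KO columns were below the WT columns in both sorts, with KO minus WT of -0.45 in CD8 and -0.51 in CD4 on the log2(FPKM + 1) scale used for all differences here. FPKM values sum over all exons of a gene, so they do not check the genotype, which rests on the labels.

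Genes that define the sorts followed the titles in the Population columns. Cd8a, the alpha chain of the CD8 co-receptor, was at 826 and 701 FPKM in the WT and KO CD8 columns, and in CD4 was listed at 0 in WT and at 0.45 in KO. Cd4 was listed at 0 in both CD8 columns and stood at 609.7 FPKM in WT CD4 and 421 in KO CD4. Cd8b1, the beta chain, was at 1789.6 and 2345 FPKM in the CD8 columns against 26.3 and 54.9 in the CD4 columns. Low Cd8b1 was also seen in single CD4 cells, with averages of 27.1 FPKM in WT and 22.2 in KO. T cell identity genes such as Cd3e and Lck were all present: 14 of 14 were at 1 FPKM or more in each Population column. Xist, the RNA that silences one X chromosome in female cells, lay between 47.8 and 81.8 FPKM in the 4 columns.

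Foxp3, the transcription factor of regulatory T cells, set the Population columns apart from their cells in the CD8 sort. It was at 1038 FPKM in the WT CD4 column and 717 in the KO CD4 column, beside averages of 291.4 and 260.5 FPKM, found in 46 of 85 and 35 of 89 cells. In WT CD8 the Population column held 28.01 FPKM, while the gene was found in 0 of 90 cells. That allows up to 3.33% of cells with a detected transcript, and sets no limit on cells that express the gene, since low transcripts are often lost. In KO CD8 the reverse was seen, with the Population column listed at 0 and 4 of 86 cells positive, for an average of 22.8 FPKM. So the WT and KO CD8 columns and cells ordered this gene in opposite directions.

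Levels in a Population column followed the average of its own cells across genes, more closely in WT CD8 than in WT CD4. Pearson's r of log2 levels was 0.906 over 11273 genes (WT) and 0.864 over 10851 genes (KO) in CD8, and 0.818 over 11283 and 0.860 over 11184 genes in CD4. Genes are not independent replicates, and these are given without a p. The r of single cells with their Population column was lower, at a median of 0.497, 0.485, 0.429 and 0.470 and at most 0.762 in any cell. It was taken over all 23362 genes, whereas r of the averages covers genes at 1 FPKM or more in either, so the gene sets differ. For 3 of 4 columns the own group gave the highest r among the 4 averages. The exception was the KO CD8 column, with 0.876 against the WT CD8 average and 0.864 against its own. For the WT CD4 column the margin was small, 0.818 for its own average and 0.815 for KO CD4.

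**Figure D1:**
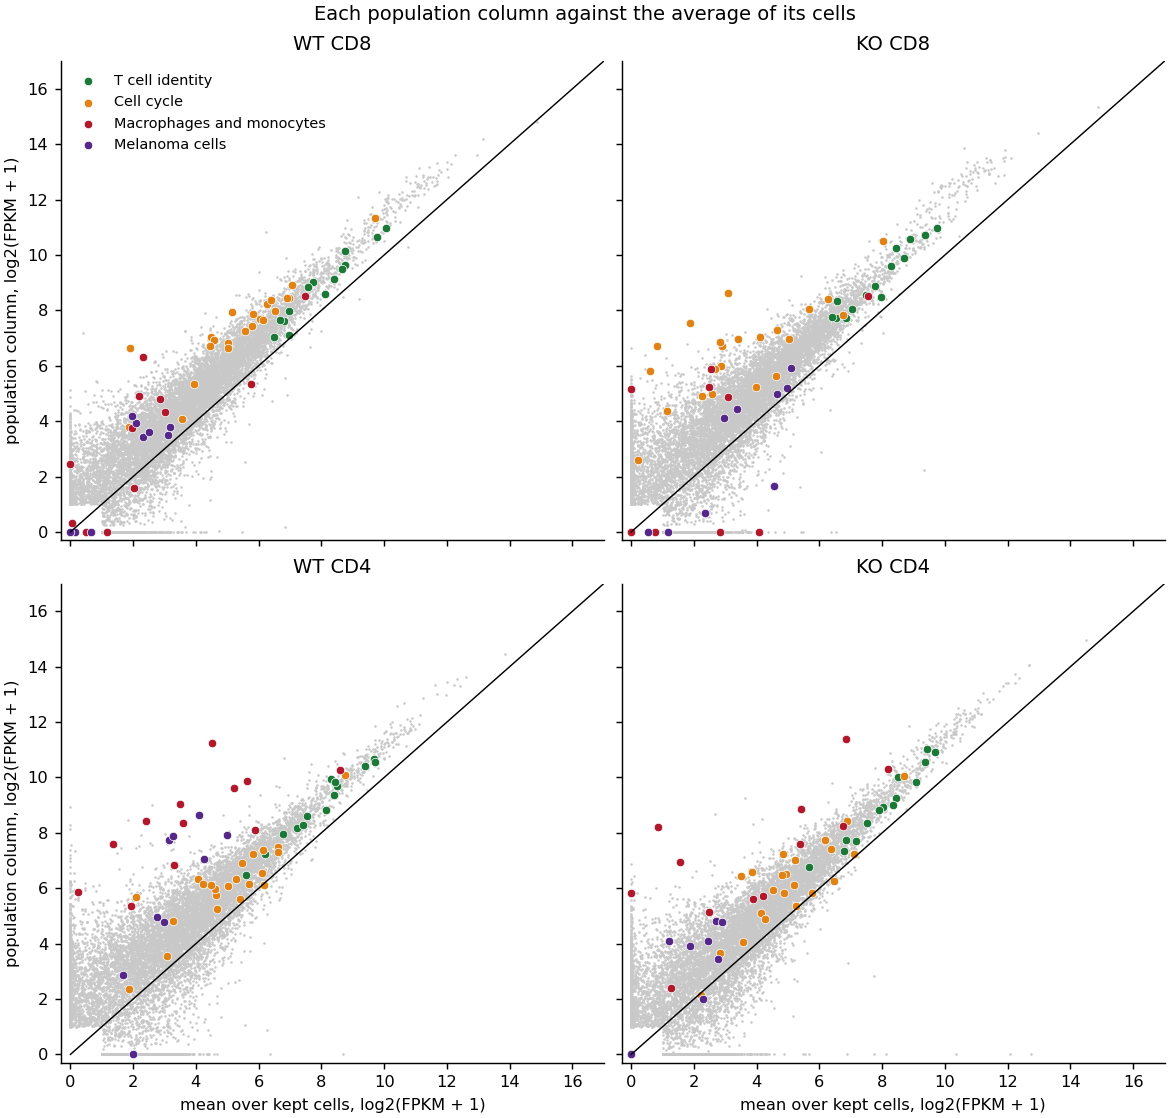
Each point is a gene, with the average of the kept cells on the horizontal axis and the Population column on the vertical axis, both as log2(FPKM + 1), for the 4 groups; the line marks equal values. T cell identity genes lie along the main cloud in every group, macrophage and monocyte genes lie far above it in WT CD4 and KO CD4, melanoma genes in WT CD4, and cell cycle genes in KO CD8.

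Most of the cloud lies above the line of equality, which follows from the scale of the columns. The values of a Population column summed to 2.31, 2.93, 2.29 and 2.32 times those of the average cell. Median differences of Population minus cells were 1.05, 1.27, 1.17 and 1.02 over genes at 5 FPKM or more in either. With every column rescaled to the same sum they were -0.085, -0.21, 0.041 and -0.14, so gene lists are given below against the median of all genes. In these columns fewer cells of a type and less RNA per cell cannot be told apart.

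T cell identity genes stayed close to that median, between -0.16 and -0.07 in the 4 groups. Cell cycle genes, which drive DNA replication and division, did so in the CD4 sort (-0.032 in WT and 0.013 in KO) but stood above it in WT CD8 by 0.71 and in KO CD8 by 1.53. In KO CD8 their summed level was 4084 FPKM in the Population column and 658 in the average cell. Rrm2, a subunit of ribonucleotide reductase, was at 184.9 FPKM in that column and at 2.69 on average, in 4 of 86 cells. Stmn1, a microtubule regulator of dividing cells, was at 393 FPKM against 7.43, in 3 of 86 cells. Cdc20, an activator of the anaphase-promoting complex, was at 103.1 against 0.768 FPKM. These 3 genes were in few cells or low in them, while 62 of 86 KO CD8 cells and 76 of 90 WT CD8 cells had 3 or more of the 22 listed genes.

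Respiratory chain genes were above the median of all genes in each group, by 0.31 in WT CD4 to 0.74 in KO CD8. Ribosomal protein genes were above it by 0.65 in KO CD8, 0.41 in KO CD4 and 0.24 in WT CD8, and below it in WT CD4, at -0.15. Naive and memory genes, which mark T cells that recirculate or keep the capacity to expand, were below it in all groups, from -0.86 in WT CD8 to -0.32 in KO CD4. Regulatory T cell genes stood at 0.79 against it in WT CD8 and at -1.03 in KO CD8, split in the same direction as Foxp3.

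Some marker lists of other cell types, though not all, stood in the CD4 Population columns far above the averages of their cells. Against the median of all genes, the macrophage and monocyte list was at 3.41 in WT CD4 and 1.66 in KO CD4. The melanoma list was at 1.70 and 0.94, and the class II and dendritic cell list at -0.41 and 1.13. Which cells the transcripts came from was not tested. The macrophage and monocyte list summed to 577 and 527 FPKM in the CD8 columns and to 7233 (WT) and 5504 (KO) FPKM in the CD4 columns, and to 257.6, 226.4, 591 and 632 FPKM in the average cells. All 12 listed markers were at 1 FPKM or more in both CD4 columns, against 9 in WT CD8 and 5 in KO CD8, where 2 and 7 were listed at 0. Cells with 3 or more of these markers numbered 3 of 90, 0 of 86, 6 of 85 and 4 of 89. Lyz2, the lysozyme of myeloid cells, was at 19.04 FPKM in WT CD8 and listed at 0 in KO CD8, but at 776 (WT) and 2663 (KO) FPKM in the CD4 columns. Apoe, an apolipoprotein made by macrophages, was at 39.8, 37.03, 2408 and 194.6 FPKM. C1qb, a complement chain, was at 26.6 FPKM, listed at 0, at 525 and at 294.5. Macrophage genes were therefore high in both CD4 columns, though not the same ones led in each.

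Melanoma genes were high in 1 column. Their list summed to 75.9 and 166.8 FPKM in the CD8 columns and to 1287 (WT) and 113.03 (KO) FPKM in CD4, and to 31.1, 131.7, 99.3 and 30.1 FPKM in the average cells. Pmel, a melanosome matrix protein, was at 404 FPKM in WT CD4 and between 14.4 and 30.8 in the other 3 columns. Dct, an enzyme of melanin synthesis, was at 242.9 FPKM in WT CD4 and at 12.99, 60.2 and 26.7 in the other 3. Tyr, tyrosinase, differed from the rest of the list by being found in 90 of 90, 83 of 86, 81 of 85 and 87 of 89 cells at averages of 5.80 to 7.70 FPKM. Class II antigen presentation and dendritic cell genes summed to 204.8, 99.9, 2802 and 4987 FPKM in the Population columns and to 170.7, 23.5, 1729 and 992 in the average cells. H2-Aa, a class II chain, was at 858 FPKM in WT CD4 and 1557 in KO CD4, found in 3 of 85 and 4 of 89 cells.

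**Figure D2:**
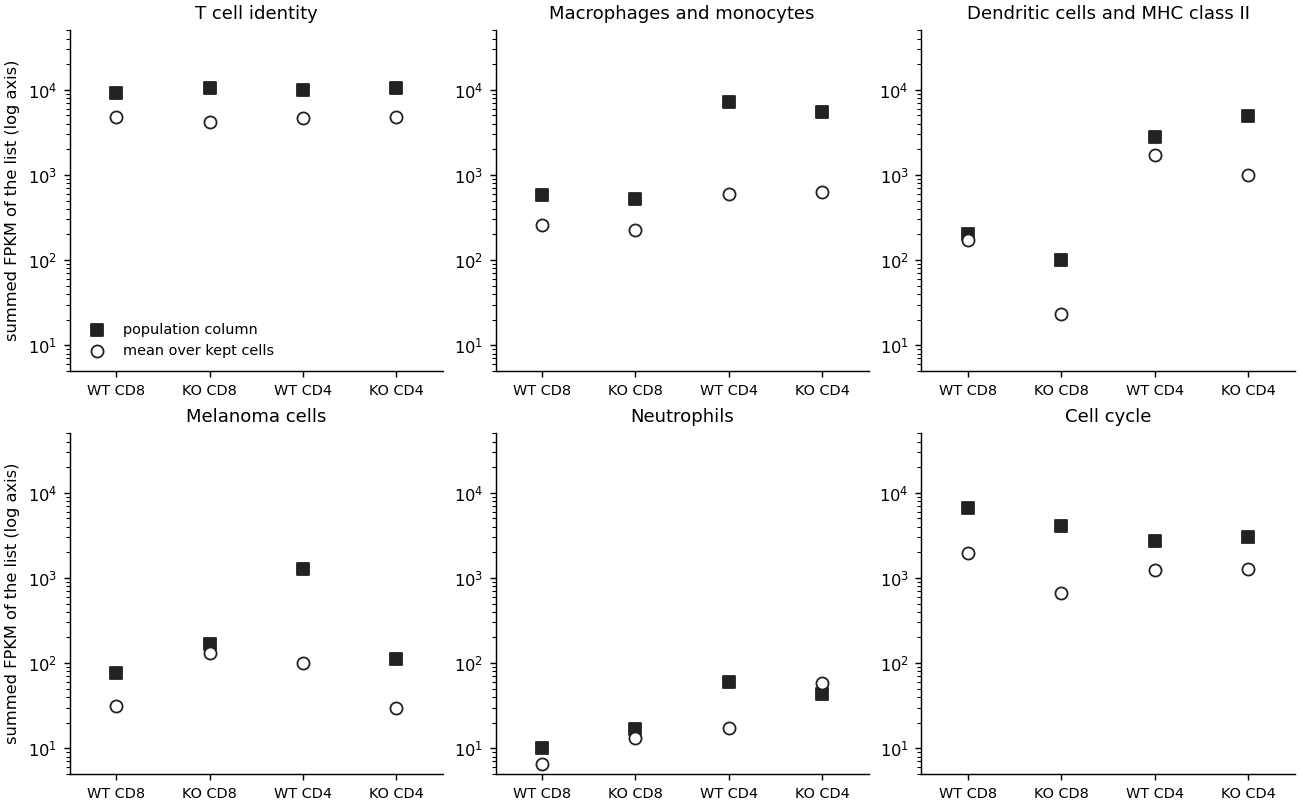
Summed FPKM (log axis) of 6 gene lists in the Population column (filled squares) and in the average of the kept cells (open circles) of each group; there is 1 column per group and no error bar. T cell identity genes are level over the 4 columns, whereas the macrophage list is at 7233 and 5504 FPKM in the CD4 columns and 577 and 527 FPKM in the CD8 columns, and the melanoma list reaches 1287 FPKM only in the WT CD4 column.

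Other lists had small sums, none above 148.5 FPKM in a Population column. Against the median of all genes some stood high in CD4, over 1 to 4 genes at 5 FPKM or more. Platelet genes were at 2.44 in WT CD4 and 3.13 in KO CD4, and B cell genes at 2.46 and -3.80. Genes of NK cells, some of which CD8 T cells also express, summed to 135.07 and 148.5 FPKM in the CD8 columns and to 17.04 and 38.02 in the CD4 columns, beside 28.2, 47.7, 9.10 and 15.8 FPKM in the average cells. Platelet genes summed to 134.5 FPKM in WT CD4 and to at most 16.8 in the other columns. Endothelial genes summed to 24.2 to 98.2 FPKM and mast cell genes to 2.37 to 41.03 FPKM over the 4 columns. Neutrophil genes summed to 10.1 to 60.7 FPKM over the 4 columns, and fibroblast genes to 1.70 to 8.93 FPKM. B cell genes summed to 83.9 FPKM in the WT CD4 column, where Cd79a, a chain of the B cell receptor complex, stood at 50.6 FPKM in 0 of 85 cells. Red blood cell genes went the other way. Hba-a1, an alpha globin, averaged 6831 FPKM over KO CD4 cells because of 1 cell, and the KO CD4 Population column was listed at 0.

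Between 10215 and 10671 genes were at 1 FPKM or more in a Population column, against a median of 1661 to 2148 in a single cell. Almost all of these genes were seen in at least 1 cell of the group. Genes found in no kept cell, called missed here, were 419 of 10671 in WT (3.93%) and 623 of 10215 in KO (6.10%) for CD8, and 626 of 10479 (5.97%) and 543 of 10423 (5.21%) for CD4. They were low genes, with a median of 2.54, 4.19, 4.99 and 3.79 FPKM beside 23.9, 26.97, 26.1 and 23.8 FPKM for genes shared with the cells. Of genes between 1 and 5 FPKM in the Population column, 16.7% to 21.1% were missed. From 50 to 100 FPKM the share was 0.0713% in KO CD8, 0.970% in WT CD4, 0.227% in KO CD4 and 0 of 1392 genes in WT CD8. Detection in cells was also higher for higher genes: a gene of 1 to 5 FPKM was found in a median of 3.33% of WT CD8 cells and a gene of 100 FPKM or more in 43.3%. In WT CD4 the highest bin reached 31.8% of cells.

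**Figure D3:**
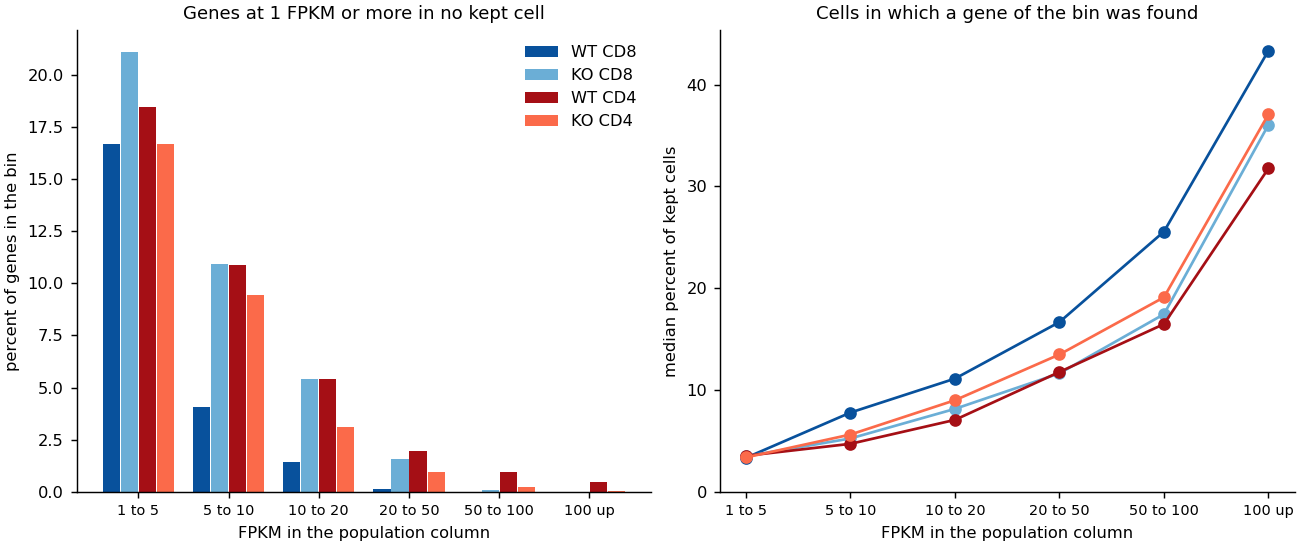
Left, percent of genes in each bin of Population FPKM that were at 1 FPKM or more in no kept cell; right, median percent of kept cells in which a gene of the bin was found. The missed share falls from 16.7% to 21.1% in the lowest bin to under 1% from 50 FPKM up, and WT CD8 genes were found in the largest share of cells in the 5 bins from 5 FPKM up.

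Over the 4 groups 1903 genes were missed in at least 1 and 0 in all 4, and 473 Population genes were found in no cell of any group. With 3.93% to 6.10% of Population genes missed per group, almost no gene would be missed in all 4 even if misses were unrelated. The 0 is therefore not a result about these genes. Of the missed genes, 64.7%, 84.6%, 71.7% and 73.3% were found in cells of another group, and the same share over all genes was not computed. At 50 FPKM or more, 0 and 1 genes were missed in the CD8 columns and 23 (WT) and 4 (KO) in the CD4 columns.

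In the WT CD4 column the highest missed genes were myeloid and inflammatory. Inhba, the activin A subunit, was at 487.5 FPKM there and listed at 0 in the other 3 columns. Ccl2, a monocyte-attracting chemokine, was at 308.1 FPKM, against 7.01 in WT CD8 and 3.49 in KO CD4, and was listed at 0 in KO CD8. Fcgr2b, Fcgr3 and Fcgr4, receptors for the Fc part of IgG, were at 281.99, 167.4 and 145.02 FPKM. Clec4e, a pattern-recognition lectin of macrophages, was at 189.9 FPKM. The macrophage list summed to 7233 FPKM in that column and to 5504 FPKM in KO CD4, where Inhba and Ccl2 were low or listed at 0. The part of other cells in these values was not tested.

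The other columns missed fewer genes at high levels. In KO CD4, Il5, a type 2 cytokine, was at 116.5 FPKM and listed at 0 in the other 3 columns and in all kept cells. Cd63, a late endosome protein, was at 79.8 FPKM there, Aif1, a macrophage protein, at 70.8, and Cd14, a lipopolysaccharide co-receptor, at 55.4, all in 0 of 89 cells. In KO CD8 the highest was Spc25, a kinetochore protein, at 98.8 FPKM in 0 of 86 cells, beside 93.2 FPKM in WT CD8, where 7 of 90 cells had it. Cdc45, a replication factor, was also missed in KO CD8 at 38.2 FPKM. In WT CD8 the highest were Gstk1, a glutathione transferase, at 34.03 FPKM, Foxp3 at 28.01, and Ccl7, a monocyte chemokine, at 22.6.

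With the thresholds used for missed genes the converse was more common. Genes found in at least 1 kept cell but under 1 FPKM in the Population column numbered 2435, 2256, 2968 and 2312. The median such gene was found in 1, 1, 1 and 2 cells. A stricter converse asked for a gene found in 20% or more of cells but under 1 FPKM in the column. It held for 73 of 4570 genes in WT (1.60%) and 67 of 3283 in KO (2.04%) for CD8, and for 67 of 3203 (2.09%) and 54 of 3540 (1.53%) for CD4. Some of these were low in most cells, and others were found in few cells over all groups. Saa4, a serum amyloid protein, was found in 83.1% of 350 cells at a median of 5.79 FPKM where found, and the Population columns held 0.61 FPKM in WT CD8 and 0 in the other 3. Fgf5, a fibroblast growth factor, was found in 62.6% of 350 cells at a median of 2.69 FPKM and listed at 0 in all 4 columns. Lonrf1 was found in 72.9% of 350 cells at 2.85 FPKM and lay between 0.36 and 0.93 FPKM in the columns. Tgtp1, an interferon-induced GTPase, was in 58 of 350 cells at a median of 41.8 FPKM and at no more than 0.1 FPKM in any column. It shares 79.4% of its 50-base stretches with Tgtp2, so the assignment of reads between them is uncertain.

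The question of the study was what loss of the IL-27 receptor changes in T cells of the tumour. KO minus WT was therefore set out for the 2 Population columns of a sort beside the averages of the cells, over genes at 5 FPKM or more in either column and found in 20% or more of the cells of either group. A gene is counted as higher or lower in KO past a log2 difference of 1, a 2-fold change of FPKM + 1. In the CD8 Population columns 7.0% of 4485 genes were higher in KO and 6.73% lower. In the CD8 cell averages 2.10% were higher and 10.6% lower. In the CD4 Population columns 6.61% of 3675 genes were higher and 7.13% lower, and in the CD4 averages 7.05% were higher and 4.57% lower. Genes above WT to any extent were 51.5% in the CD8 columns, 32.4% in the CD8 averages, 50.9% in the CD4 columns and 58.3% in the CD4 averages. The rule of 20% of cells can favour genes high in the genotype where more genes reach it. For the CD8 sort 4570 genes reached it among WT cells and 3283 among KO cells. The CD4 counts were 3203 (WT) and 3540 (KO). Without this rule the median difference of the averages was -0.23 for CD8 and 0.055 for CD4, beside -0.24 and 0.12 with it.

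Both kinds of library gave a like direction for more genes than not, and over all measured genes in CD8 more than in CD4. Pearson's r of the differences was 0.353 in CD8, with the same sign in 60.9% of genes, and 0.188 in CD4, with 57.9%. Past 2-fold in both kinds, 36 CD8 genes were higher and 96 lower, while 15 were higher in the column and lower in the cells and 9 the reverse. In CD4 these counts were 51, 33, 9 and 25. Over 3423 genes measured in both sorts the CD8 columns had r of 0.358 with CD8 cells and 0.053 with CD4 cells, and the CD4 columns 0.175 with CD4 cells and 0.029 with CD8 cells. In CD4 the likeness was larger for genes found in 60% or more of cells (r of 0.371 over 604 genes) than for those in 20% to 40% (0.170 over 2297) or in 40% to 60% (0.158 over 774). In CD8 these 3 values were 0.402, 0.327 and 0.409, and the same sign was seen in 58.4%, 60.6% and 63.4% of genes. In CD4 the same sign was seen in 68.7%, 54.6% and 58.9%, so for genes found in 60% or more of cells CD4 was above CD8. The median difference over all genes was 0.025 in the CD8 columns and -0.24 in the CD8 averages, 0.011 in the CD4 columns and 0.12 in the CD4 averages. Rescaling every column to the same sum moved these medians to -0.092, -0.0064, -0.21 and -0.062, and the share of higher genes among those called from 50.97% to 37.1%, 16.5% to 39.1%, 48.1% to 23.9% and 60.7% to 40.3%.

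**Figure D4:**
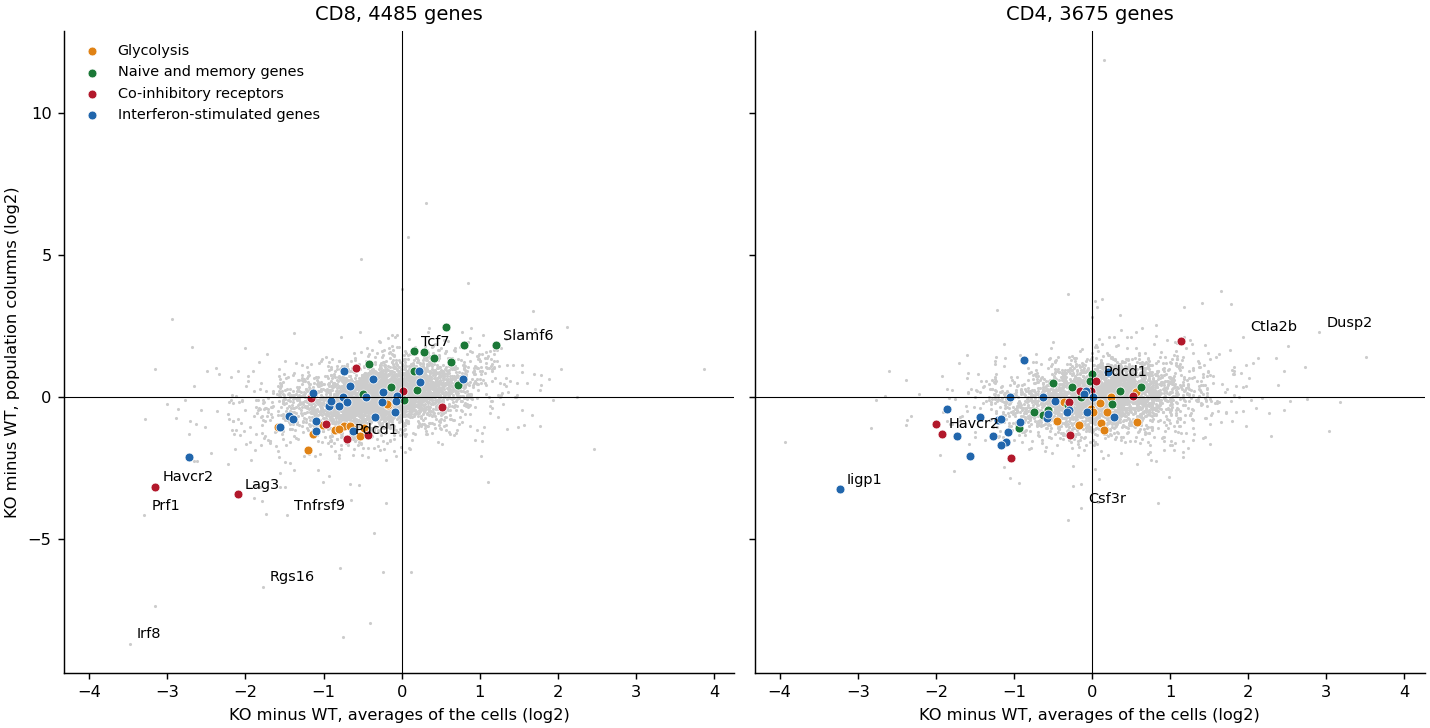
KO minus WT (log2) of the Population columns on the vertical axis against that of the cell averages on the horizontal axis, for the measured genes of the CD8 sort (left) and the CD4 sort (right), each point a gene; 4 gene lists are coloured. Prf1, Irf8, Havcr2 and Lag3 lie far to the lower left in CD8, glycolysis genes lie below 0 on both axes in CD8, and Iigp1 lies at the lower left in CD4.

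Among the genes furthest below WT in the KO CD8 column were ones of killing and T cell activation. Prf1, perforin, the pore-forming protein of cytotoxic granules (chromosome 10, 61297833 to 61304680), was at 2004 FPKM in WT and 111.5 in KO, a difference of -4.16. In cells it averaged 429 FPKM, found in 42 of 90, and 42.8 FPKM, found in 12 of 86 (-3.29). Irf8, an interferon regulatory factor induced in activated CD8 T cells, was at 409 FPKM in WT and listed at 0 in KO, with cell averages of 110.2 and 8.94. The cells were lower in KO for both genes, by less than the column in Prf1.

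Rgs16 and Tnfrsf9 showed a wide gap between the kinds of library. Rgs16, which damps signals of chemokine receptors, was at 759.6 FPKM in WT CD8 and 6.42 in KO CD8 (-6.68), with averages of 226.4 and 65.25 (-1.78). Tnfrsf9, the co-stimulatory receptor 4-1BB, was at 1231 and 67.9 FPKM (-4.16), with averages of 368.3 and 132.4 (-1.47), and did not differ alike in CD4, at 1729.7 and 1913 FPKM. Gzmb, granzyme B, was at 4329 FPKM in WT CD8 and 549 in KO CD8 (-2.98), with averages of 569.6 and 283.4 (-1.004). Of 14 measured cytotoxic effector genes of 21, 4 were lower past 2-fold in the column, against 6.73% of all genes, and 0 higher. In the cells 3 were lower, against 10.6% of all genes, and 0 higher. To any extent 8 were below WT and 6 above it in the column, and 9 and 5 in the cells. Over all genes 48.5% were below WT in the columns and 67.6% in the cells. The list median was -0.28 in both kinds, and that of the cells turned to 0.011 with columns rescaled.

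Co-inhibitory receptors, which restrain T cells and mark the exhausted state, were lower in KO CD8 for 4 of 10 measured genes of 18 and higher for 1, and in the cells lower for 3 and higher for 0. Over all genes 6.73% were lower past 2-fold in the columns and 10.6% in the cells. The median difference was -0.65 in the columns and -0.64 in the cells. Havcr2 (Tim-3) was at 258.5 FPKM in WT CD8 and 28.01 in KO CD8, with averages of 84.1 and 8.54, so that both differences came to -3.16. Lag3 was at 732 and 67.2 FPKM (-3.43), with averages of 339.8 and 78.5 (-2.10). Pdcd1 (PD-1) was at 939.7 and 335.4 FPKM (-1.48), with averages of 375.3 and 230.7 (-0.70). Tigit, a receptor for poliovirus-receptor family ligands, was at 849.6 and 338.8 FPKM (-1.32), with averages of 375.1 and 278 (-0.43). In each of the 4 the KO value was below the WT value in both kinds of library.

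Other members of the list did not all follow that order. Cd160, a receptor for herpesvirus entry mediator, was at 66.7 FPKM in WT CD8 and 134.7 in KO CD8, while its averages were 28.8 and 18.9. Ctla4 was at 429.7 and 335.9 FPKM, with averages of 163.9 and 234.4. Cd96, a receptor for nectin-family ligands, was at 199.5 and 229.3 FPKM, with averages of 101.8 and 103.01. Entpd1 (CD39), under the share of cells needed to be counted, was lower in KO in both kinds, at 86.7 and 8.12 FPKM with averages of 30.4 and 12.6.

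Glycolysis enzymes were lower in the KO CD8 column in 13 of 13 measured genes of 15, past 2-fold in 10, against 6.73% of all genes. The median difference was -1.10 in the columns and -0.74 in the cells. There 13 of 13 were lower and 4 past 2-fold, against 67.6% and 10.6% of all genes. Tpi1, triosephosphate isomerase, was at 1632 FPKM in WT CD8 and 450.3 in KO CD8 (-1.86), with averages of 393 and 170.2 (-1.20). Pgk1, phosphoglycerate kinase, was at 1409.7 and 577 FPKM (-1.29). Aldoa, an aldolase, was at 3290.2 and 1484 FPKM (-1.15). Slc2a3, a glucose transporter, was at 148.3 and 56.8 FPKM (-1.37).

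Cell cycle genes were lower in KO CD8 in 12 of 12 measured genes of 22 in both kinds of library, by less in the column. Their median was -0.71 in the columns, with 2 past 2-fold, and -1.52 in the cells, with 9. Over all genes 6.73% were lower past 2-fold in the columns and 10.6% in the cells, and 67.6% were below WT to any extent in the cells. Mcm3, part of the replicative helicase, was at 298.1 FPKM in WT CD8 and 131.3 in KO CD8 (-1.18), with averages of 76.5 and 16.1 (-2.18). Top2a, topoisomerase II alpha, was at 112.5 and 62.2 FPKM (-0.84), with averages of 31.1 and 6.22 (-2.15). The share of cells needed to be measured was reached by 4570 genes in WT CD8 and 3283 in KO CD8. The counts of 12 of 12 can therefore lean to genes high in WT cells. Over the alternatives, including no filter on cells, the median stayed between -0.82 and -0.68 in the columns. In the cells it stayed between -1.97 and -0.97. Of the genes found in too few cells to be counted, Stmn1 was higher in KO in the column, at 328.4 and 393 FPKM. In the cells it was lower in KO, at 83.9 and 7.43 FPKM.

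Naive and memory genes went the opposite way. In the KO CD8 column 13 of 14 measured genes of 17 were above WT and 8 past 2-fold, against 7.0% of all genes, with a median of 1.18. In the cells 11 of 14 were above WT, 1 past 2-fold, against 32.4% and 2.10% of all genes, with a median of 0.25. Lef1, a transcription factor of naive T cells, was at 71.7 FPKM in WT CD8 and 257.6 in KO CD8 (1.83), with averages of 77.03 and 134.999 (0.80). Tcf7, the transcription factor TCF-1 of memory and progenitor cells, was at 193.8 and 597 FPKM (1.62), with averages of 208.7 and 232.8 (0.16). Slamf6, a surface receptor of progenitor cells, was at 29.1 and 105.4 FPKM (1.82), with averages of 41.1 and 96.1 (1.21). The column and cells therefore shared a direction for these 3 genes.

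Ribosomal protein genes split between the kinds of library. In CD8, 28 of 28 were higher in the KO column, with a median of 0.44, while 26 of 28 were lower in the cell averages, with a median of -0.18 that turned to 0.0080 with columns rescaled and to 0.062 with centring. Over all genes 51.5% were above WT in the columns and 67.6% below it in the cells. Of the 28, 1 was higher past 2-fold in the column, against 7.0% of all genes, and 0 passed 2-fold in the cells. Rps14 was at 5594 FPKM in WT CD8 and 10411 in KO CD8, with averages of 2262 and 2074. Interferon-stimulated genes were lower in 15 of 26 measured in the CD8 column (median -0.17) and in 23 of 26 in the cells (-0.68), against 48.5% and 67.6% of all genes. Past 2-fold 4 were lower in the column and 7 in the cells, against 6.73% and 10.6% of all genes. Bst2 (tetherin), an antiviral membrane protein, was at 62.3 FPKM in the KO CD8 column, below WT (-2.11), with averages of 136.5 and 19.8 (-2.73).

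Genes higher in KO CD8 in both kinds of library were led by Usp28, a deubiquitinase. It was at 8.30 FPKM in WT and 49.7 in KO (2.45), with averages of 4.195 and 21.5 (2.11). Ifngr2, the second chain of the interferon gamma receptor, was at 9.18 and 81.1 FPKM (3.01), with averages of 11.2 and 38.3 (1.69). H60b, a ligand of the activating receptor NKG2D, was at 10.7 and 60.3 FPKM (2.39), with averages of 2.72 and 11.1 (1.70). Ccr2, a chemokine receptor, was at 35.9 and 150.6 FPKM (2.04), with averages of 25.1 and 64.85 (1.33). Macrophage list sums in these 2 columns were 577 and 527 FPKM, with 9 (WT) and 5 (KO) of 12 markers at 1 FPKM or more. Melanoma sums were 75.9 and 166.8 FPKM, beside 1287 in WT CD4 and 113.03 in KO CD4. The part of other cells in these values was not tested.

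Some CD8 genes moved in opposite directions past 2-fold. Txndc11, a thioredoxin-domain protein, was at 7.13 FPKM in WT and 53.1 in KO in the columns (2.73) but averaged 15.4 and 1.14 in the cells (-2.94). Arl16, a small GTPase, was at 21.9 and 5.39 FPKM in the columns (-1.84) and averaged 0.955 and 9.79 (2.46). The largest column difference with KO higher was Amd1, an enzyme of polyamine synthesis, listed at 0 in WT CD8 and at 113.4 FPKM in KO CD8. Its near copy Amd2 was at 66.1 FPKM in WT CD8 and 0.04 in KO CD8. Of the 50-base stretches of Amd1, 76.7% occur in Amd2, so reads can be split between the 2 genes and their separate values are uncertain.

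In the CD4 sort the list of interferon-stimulated genes had the lowest median of those with 5 or more measured members, in columns and in cells. These genes were below WT in 20 of 26 measured genes of 39 in the KO column and in 23 of 26 in the cells, with medians of -0.65 and -0.90. Past 2-fold, 7 were lower in the column, against 7.13% of all genes, and 12 in the cells, against 4.57%. Iigp1, an interferon-induced GTPase, was at 186.5 FPKM in WT CD4 and 18.6 in KO CD4 (-3.25), with averages of 108.8 and 10.7 (-3.23). Bst2 was at 387 and 91.9 FPKM (-2.06), with averages of 113.3 and 37.8 (-1.56). Gbp6, a guanylate-binding protein, was at 245.2 and 75.7 FPKM (-1.68), with averages of 155.96 and 69.02 (-1.16). Macrophages can also make these genes, and their list summed to 7233 FPKM in the WT CD4 column and 5504 in KO CD4. The part of those cells in the column values was not tested.

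Genes of IL-27 signalling were lower in the KO CD4 column in 9 of 13 measured genes of 13 (median -0.51) and in 9 of 13 in the cells (-0.36). In each kind 3 passed 2-fold downwards and 0 upwards, against 7.13% of all genes lower in the columns and 4.57% in the cells. The cell median turned to 0.16 with cells of at least 2000 genes. Stat4 was at 247.2 and 99.1 FPKM (-1.31), with averages of 58.1 and 45.05 (-0.36). Il6st, which encodes gp130, was at 26.4 and 12.4 FPKM (-1.03), with averages of 14.4 and 6.38 (-1.06). In the CD8 sort 7 of 12 measured genes were lower in the column and 8 in the cells, against 48.5% and 67.6% of all genes. The CD8 medians of this list were -0.14 in the columns and -0.15 in the cells. Stat3, the only one past 2-fold in the CD8 column, was at 429 and 169.8 FPKM (-1.33), with averages of 172.6 and 80.6 (-1.09). Tbx21, the T-bet transcription factor of type 1 T cells, was at 70.5 and 27.6 FPKM in the CD4 columns (-1.32) and at 109.8 and 119.1 in the CD8 columns.

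Co-inhibitory receptors in CD4 had medians of -0.17 in the columns and -0.15 in the cells over 11 measured genes, with 3 lower and 1 higher past 2-fold in each kind. Over all genes 7.13% were lower and 6.61% higher in the columns, and 4.57% and 7.05% in the cells, and the column median turned to 0.12 with no filter on cells. Havcr2 was at 162.2 FPKM in WT CD4 and 65.7 in KO CD4 (-1.29), with averages of 85.6 and 21.8 (-1.93). Lag3 was at 1049 and 548 FPKM (-0.93), with averages of 307.3 and 76.45 (-1.99). Entpd1, which macrophages also carry, was at 186.2 and 41.2 FPKM (-2.15), with averages of 51.4 and 24.4 (-1.04). Cd200r1, a receptor that restrains leukocytes, was the one higher in both, at 24.8 and 98.97 FPKM (1.96), with averages of 32.2 and 72.2 (1.14). Pdcd1 went against its CD8 order, at 617 and 911 FPKM (0.56), with averages of 347.5 and 361.2.

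Early-response genes were among those higher in KO CD4 in both kinds. Dusp2, a phosphatase induced on activation, was at 46.7 FPKM in WT CD4 and 229.5 in KO CD4 (2.27), with averages of 24.3, found in 8 of 85 cells, and 188.99, found in 31 of 89 (2.91). Ier2, an immediate early gene, was at 327.6 and 965 FPKM (1.56), with averages of 210.97 and 592 (1.48). Jun, a subunit of AP-1, went the other way in the column, at 335.9 and 75.1 FPKM (-2.15), with averages of 61.8 and 68.02. Over the immediate early and heat shock list the median was 0.089 in the columns and 0.27 in the cells. Ctla2b, a cysteine protease inhibitor, was at 65.1 and 286.1 FPKM (2.12), with averages of 20.3 and 80.03 (1.93).

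Glycolysis genes had medians of opposite sign in the CD4 column and cells. In the KO CD4 column 12 of 13 measured genes were below WT, 1 past 2-fold, with a median of -0.54. In the cells 5 of 13 were below WT, with a median of 0.10. That median turned negative, down to -0.17, with columns rescaled, with centring, or with cells of at least 2000 genes. Over all genes 49.1% were below WT in the columns, 7.13% past 2-fold, and 41.7% in the cells. Pgam1, phosphoglycerate mutase, was at 1095 FPKM in WT CD4 and 490.1 in KO CD4 (-1.16), with averages of 235.7 and 261.4 (0.15). Tpi1 was at 1819 and 919 FPKM (-0.98), with averages of 423 and 376.5 (-0.17). These enzymes are made by all cell types, and the melanoma list summed to 1287 FPKM in the WT CD4 column and 113.03 in KO CD4. The part of tumour or myeloid RNA in the glycolysis values was not tested. Csf3r, the receptor for granulocyte colony-stimulating factor, was the gene furthest down in the KO CD4 column once predicted and unnamed genes were set aside, at 33.96 FPKM in WT and 1.33 in KO (-3.91), with averages of 1.22 and 1.01 (-0.15). Lamp1, a lysosomal membrane protein, was at 104.9 and 41.8 FPKM in the columns and averaged 20.03 and 51.04 in the cells.

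Ribosomal protein genes were higher in KO CD4 in 27 of 28 genes in both kinds, with medians of 0.74 and 0.31, and 3 passed 2-fold in the column. Over all genes 50.9% were above WT in the columns, 6.61% past 2-fold, and 58.3% in the cells. Residency and homing genes were above WT in 11 of 13 measured genes in the column and 12 of 13 in the cells (medians 0.41 and 0.38), beside the same shares. Cd69, which keeps T cells in tissue, was at 948 FPKM in WT CD4 and 2500.2 in KO CD4 (1.40), with averages of 568 and 1043 (0.88). Over 6 measured helper T cell genes the medians were 0.049 in the columns and 1.00 in the cells. The column median fell to as low as -0.27, turning negative with columns rescaled and with no filter on cells, and the cell median lay between 0.20 and 1.28 over the alternatives. Gata3, the transcription factor of type 2 helper cells, was at 288.2 and 385 FPKM (0.42), with averages of 76.7 and 173.6 (1.17).

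**Figure D5:**
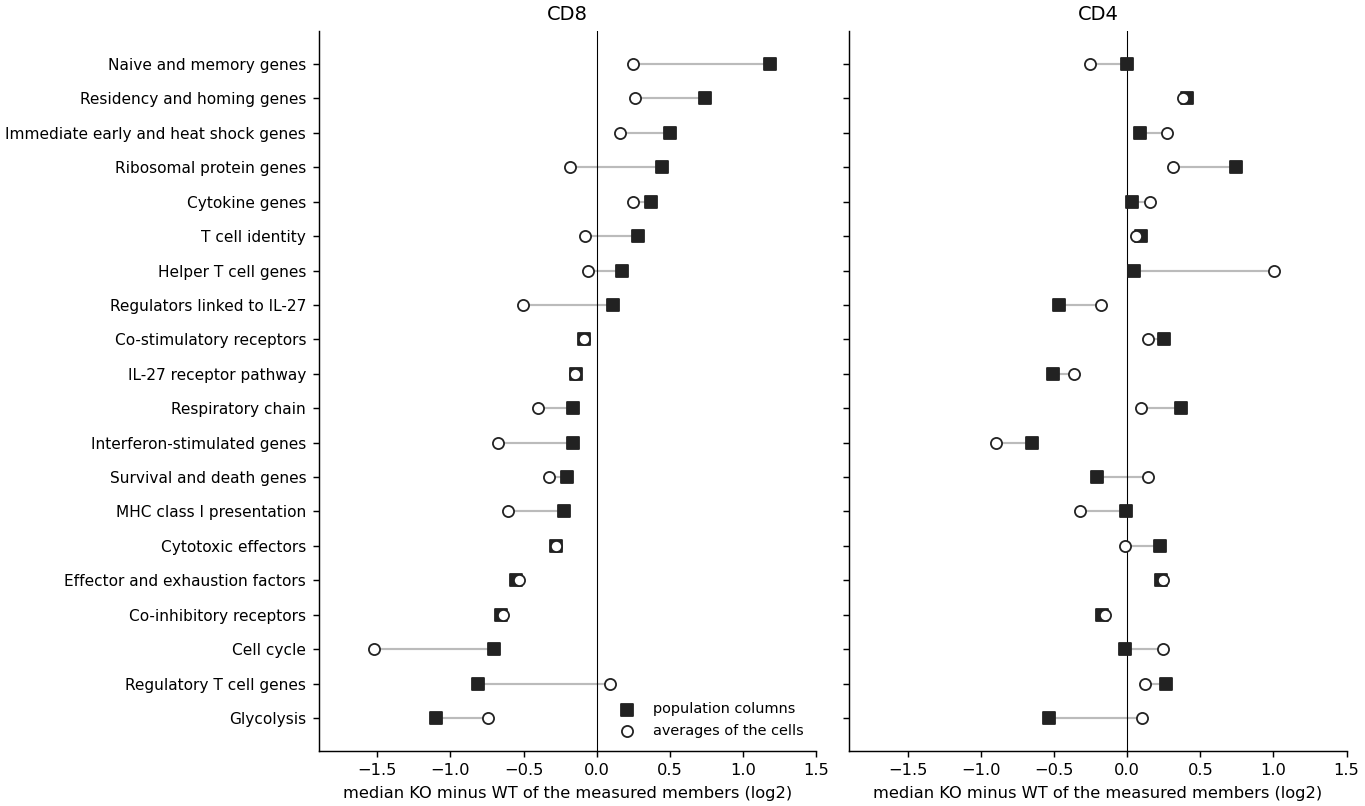
Median KO minus WT (log2) of the measured members of each gene list in the Population columns (filled squares) and in the cell averages (open circles), for the CD8 sort (left) and the CD4 sort (right), over lists with 5 or more measured members; the grey line joins the 2 values of a list. In CD8 both kinds put glycolysis (-1.10 and -0.74) and the cell cycle (-0.71 and -1.52) below 0 and naive and memory genes above 0 (1.18 and 0.25), and in CD4 both put interferon-stimulated genes below 0 (-0.65 and -0.90).

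Between the sorts of one genotype the Population columns followed their cells more closely than between genotypes of one sort. CD4 minus CD8 had r of 0.501 with the same sign in 65.9% of 4522 genes in WT, and 0.535 with 63.9% of 3776 genes in KO. Ctla4, a co-inhibitory receptor high on regulatory T cells, was at 1968 FPKM in WT CD4 and 429.7 in WT CD8, with averages of 843 and 163.9. Icos, a co-stimulatory receptor, was at 985.5 FPKM in WT CD4 and 136.2 in WT CD8, with averages of 431 and 115.2. Prf1 was at 148.4 FPKM in WT CD4 and 2004 in WT CD8, with averages of 159.1 and 429.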

How the data were processed

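Smart-seq2 libraries of sorted tumour T cells were read from one deposited table, in which the authors gave TMM-normalized FPKM per gene. Per the submitters' processing notes, reads were handled with Bowtie and RSEM on mm10; versions and settings are not given in the sources used here. TMM-scaled FPKM values are not counts, so no count test was used. The steps of the lowest values pointed to about 678302 to 858565 fragments per Population column, a rough figure, since 27.7% to 31.0% of low values fell on a step against 12.1% to 13.8% with lengths shuffled. The values are TMM-scaled, so this is a scaled size and not a count of sequenced fragments. On the same scale the median cell of a group came to 496534 to 535887.

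From 23366 genes, 4 entries with repeated symbols were left out. Groups came from titles. A gene counted as found at 1 FPKM or more. Cells with fewer than 1000 found genes were left out (350 kept). FPKM was averaged over cells, then log2(FPKM + 1) was taken, which understates changes of low genes. Population columns are the authors' values, 1 per group, with no SD or test. Genes named are Il27ra, sort markers and the co-inhibitory list, plus those ranked highest or lowest in each comparison by fixed counts, leaving out receptor segments, predicted genes and pseudogenes; some genes that the rule names are not reported here. Cd3e, Lck, Lyz2, Apoe, Pmel, Dct and H2-Aa were chosen from the lists after their values were seen. The gene lists and the comparisons were chosen with earlier results of these data known. Calculations used Python, numpy, pandas and scipy and were tested on simulated data. Alternatives covered the pseudocount, column scaling, cell and gene filters, and averaging.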

Additional observations from a re-analysis of the deposited data

Results flagged for a closer look

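Of the co-inhibitory receptors and the other genes named by rule, 3 differed past 2-fold in opposite directions between the sorts in the Population columns. This rests on 1 column per group and was not tested. Btla, a receptor for herpesvirus entry mediator, was higher in KO CD8 (23.4 FPKM in WT, 56.4 in KO, a log2 difference of 1.23) and lower in KO CD4 (36.02 and 14.8 FPKM, -1.23). Its cell averages were 12.2 and 14.01 FPKM in CD8 and 13.6 and 18.8 in CD4. Cd244, a SLAM-family receptor, was lower in KO CD8 (28.9 and 2.18 FPKM, -3.23) and in CD4 was listed at 0 in WT and at 4.87 FPKM in KO (2.55 on the log2(FPKM + 1) scale, which gives no fold). Procr, the protein C receptor, was at 5.26 FPKM in WT CD8 and listed at 0 in KO CD8 (-2.65), and listed at 0 in WT CD4 with 9.36 FPKM in KO CD4 (3.37). It was found in 1 of 90 and 0 of 86 CD8 cells and in 2 of 85 and 0 of 89 CD4 cells.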

How the results depend on the processing

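No paired analysis was possible because each group has 1 Population column and the groups share only the number 3, and for the same reason no column could be left out. Of 880 list medians under alternatives, 0 with a size of 0.5 or more changed sign, and of 1808 values of single genes, 9 past 2-fold did. Both totals include Population values under settings that act on the cell averages alone and so cannot change them. Some smaller medians did change sign. Co-stimulatory genes in CD8 cells kept theirs in 6 of 11 alternatives, and glycolysis genes in CD4 cells in 8 of 11. Shares below are percents of the genes tested, with the CD8 groups before the CD4 groups and WT before KO. With each column rescaled to the same sum, 11.9%, 12.8%, 20.9% and 13.96% of genes were 2-fold or more above their cells, against 52.99%, 64.2%, 58.1% and 51.03%, and the median difference became -0.085, -0.21 and -0.14 in all but WT CD4. KO minus WT then gave 4.91% higher CD8 cell values, 3.62% higher and 11.5% lower CD4 column values and 8.98% lower CD4 cell values. With the mean of log2 over cells, 98.6%, 98.4%, 97.1% and 97.7% of genes were 2-fold or more above their cells. The CD8 cells then gave 0.58% higher with the same sign in column and cells for 59.2%, the CD4 cells gave 1.01% lower, and the cell differences of Glt8d1 (-0.039), Dusp22 (0.043), Dgkd (0.065) and Zfp442 (-0.030) changed sign. Zfp442 also did with all cells (-0.19), and Dusp22 without the highest cell (0.054). Missed genes were 0.98%, 3.16%, 3.55% and 2.47% from 5 FPKM, 0.372%, 1.72%, 2.18% and 1.08% from 10 FPKM, and 10.3%, 10.1% and 8.14% outside WT CD8 with cells of at least 2000 genes. Genes not seen in the columns were 0.503%, 0.883%, 0.999% and 0.819% at exactly 0, 2.65%, 2.64%, 3.09% and 2.54% from 10% of cells, and 2.23% in WT CD4 with cells of at least 2000 genes. A pseudocount of 5 gave 0.959% higher CD8 cell values and 4.27% higher and 2.61% lower CD4 cell values. Genes from 20 FPKM gave 1.48% higher CD8 cell values, and centring gave 4.66% higher and 6.40% lower with the same sign in 62.7%. Cells of at least 2000 genes (38 KO CD8, 25 WT CD4) gave, in CD8 cells, 4.59% higher and 16.6% lower with the same sign in 59.2%, and in CD4 8.78% and 10.1% for columns, 11.4% and 14.01% for cells, and 53.9%. There Thap6 (-0.96), Dnajc15 (-0.56) and Lamp1 (-0.075) changed sign in CD4 cells. With no filter on cells CD8 gave 13.03% and 14.8% for columns, 6.44% and 18.1% for cells and the same sign in 58.1%, and CD4 14.8% and 19.8%, 14.8% and 12.3%, and 52.8%. The gene filters change which genes are tested; the other causes were not tested. Depth is unknown beyond the rough fragment estimate, and genes near 1 FPKM rest on few fragments.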
